A study of Caenorhabditis elegans with 15 samples.

Results

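Trehalose is a sugar made of a pair of linked glucose units that nematodes hold as a reserve and as a protectant against drying and other stress. It is made in a short pathway. Trehalose-6-phosphate synthases, encoded by *tps-1* and *tps-2*, join UDP-glucose to glucose-6-phosphate, and a trehalose-6-phosphate phosphatase, encoded by *gob-1*, then removes the phosphate from the product. Trehalases, encoded by *tre-1* to *tre-5*, split trehalose back into glucose. In *C. elegans* the synthase genes are known to be raised when insulin/IGF signaling (IIS) is low, through the transcription factor DAF-16, and larvae entering dauer need trehalose to survive desiccation. These 8 genes, chosen by their public names, were all found among the 20483 genes of the series. They comprise 3 genes of synthesis and 5 trehalases.

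The libraries came from whole hermaphrodites of *age-1(hx546); gas-1(fc21)* double mutants, of *gas-1(fc21)* mutants and of wild-type N2 (wt), with 5 biological replicates of each strain. All were synchronized by hypochlorite treatment, fed *E. coli* OP50 on standard plates and grown at 20 °C. The labels give the stage as L4, but the study's methods refer for the RNA to an extraction described for young adults, so the stage is uncertain. The fc21 allele affects a subunit of respiratory complex I and is carried by both mutants, whereas hx546 affects the catalytic subunit of the phosphoinositide kinase of IIS and is carried by the double mutant alone. An *age-1* single mutant was not analysed here, so the *age-1(hx546)* allele was compared only on the *gas-1(fc21)* background. Levels are given as FPKM, the fragments counted for a gene divided by its transcript length in kilobases and by the reads mapped, which allows genes of different length to be set side by side. Changes are log2 fold changes from limma on log2(FPKM + 0.1) in a single fit of the 15 libraries, called at a 5% false discovery rate (FDR) by the Benjamini‐Hochberg procedure over the 11648 genes that reached 1 FPKM in 5 or more libraries. Such changes understate those of genes with low levels. Of the 8 genes, 7 passed this filter, and *tre-5* did not.

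No 2 libraries held identical values, and FPKM do not give the number of reads, so the depth behind each value is unknown apart from a rough relative estimate. The *gas-1* transcript itself lay between 203.7 and 234.0 FPKM in double mutants and between 190.3 and 244.6 FPKM in *gas-1* mutants, against 95.7 to 122.5 FPKM in wt, and *age-1* averaged 3.88, 3.79 and 4.53 FPKM in the same order of strains. Both transcripts were thus present in all strains, and their levels do not check the labels. Markers of oocytes, intestine, hypodermis, body wall muscle and neurons were detected in every strain, and none of the listed markers was at 0 throughout. The summed level of 10 oocyte markers, all of which passed the filter, was 6337 to 7438 FPKM in double mutants, 7329 to 9233 FPKM in *gas-1* and 9455 to 11724 FPKM in wt libraries. Sums of 24 sperm markers, of which 10 passed, were far lower. They were 30.7 to 76.6 FPKM in double mutants, 35.6 to 58.5 FPKM in *gas-1* and 20.9 to 98.1 FPKM in wt libraries. The stage was not tested from these values. The sum of 8 intestinal markers, all of which passed, was 750.0 to 911 FPKM in double mutants, 787 to 1041 FPKM in *gas-1* and 441 to 722 FPKM in wt libraries. For 8 neuronal markers, of which 7 passed, it was 153 to 172 FPKM in double mutants, 147 to 161 FPKM in *gas-1* and 116 to 128 FPKM in wt libraries, while the sums for hypodermis and body wall muscle overlapped between all strains. The median log2(FPKM + 0.1) over the 8 hypodermal markers, which gives abundant genes less weight than the sum, was 3.83 to 4.55 in double mutants and 3.70 to 4.19 in *gas-1* libraries, against 2.49 to 3.16 in wt, so that either mutant lay wholly above wt. The part of such shifts between strains in the results was not tested. For every transcript in such whole-animal samples, fewer cells of a type and less RNA per cell cannot be told apart. Sperm transcripts were lowest within their strain in 4 libraries, double mutant replicates 2 and 5, *gas-1* replicate 2 and wt replicate 3. Within their strain these libraries also had the lowest sums of intestinal, hypodermal and body wall muscle markers and the highest sums of oocyte markers. The hypodermal median was instead highest in double mutant replicates 2 and 5 and wt replicate 3. Leaving these 4 libraries out thus does not bear on sperm transcripts alone. Each call on the 7 tested genes below was the same without these 4 libraries unless stated.

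The genes of synthesis were highest in the double mutant. In double mutants compared to *gas-1* mutants and to wt, *tps-1*, *tps-2* and *gob-1* all rose, and in *gas-1* mutants relative to wt *tps-1* and *gob-1* rose while *tps-2* did not pass the test. The trehalases did not move together. The minor trehalase genes *tre-3* and *tre-4* rose in all 3 comparisons, *tre-4* between the mutants only closely past the threshold, *tre-1* fell in either mutant compared to wt, and *tre-2* fell in double mutants compared to *gas-1* mutants. The plot of levels by library shows these patterns.

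**Figure D1:**
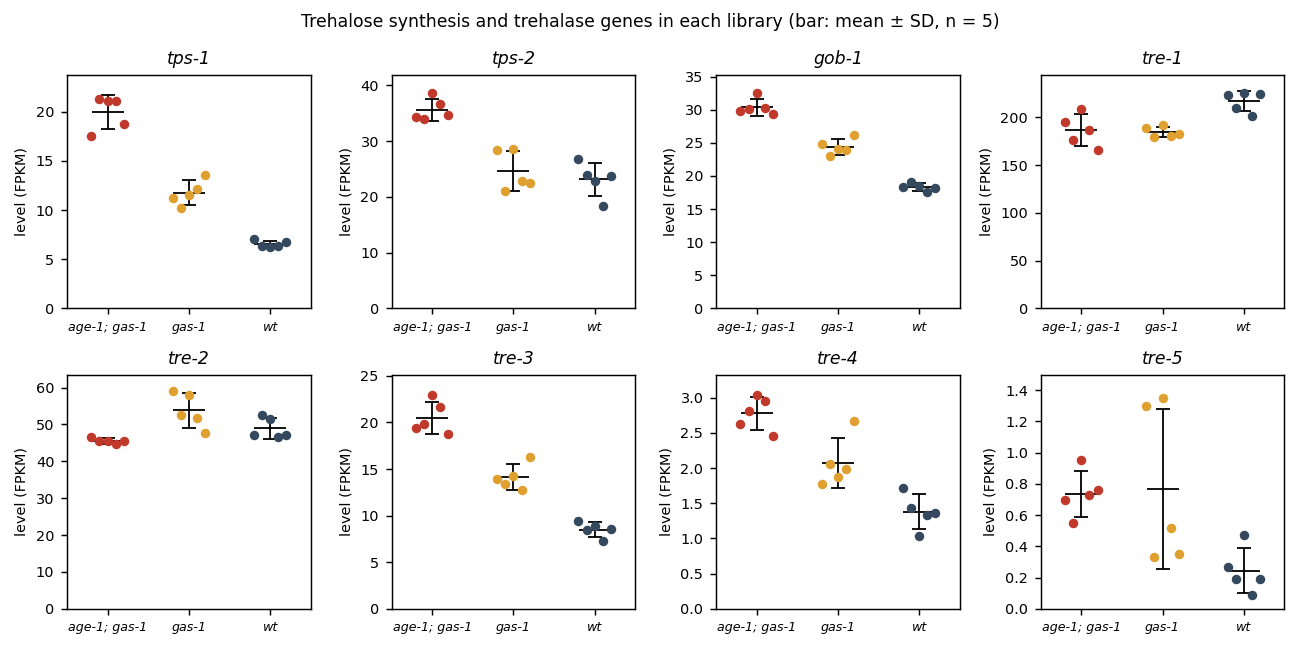
Level in FPKM (vertical axis, from 0) of each of the 8 genes in the 5 libraries of double mutants, *gas-1* and wt (points), with the mean and SD of each strain (bars). The *tps-1* points of the 3 strains form separate steps with means of 19.9, 11.7 and 6.54 FPKM, whereas *tre-1* is highest in wt, with a mean of 217 FPKM.

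The synthase gene *tps-1* showed the largest changes of the 7 genes tested by limma, with the 3 strains fully separated. It lies on the minus strand of chromosome X from 17467121 to 17474534 of WBcel235, has 2 annotated transcripts, and carries the identifier WBGene00006602. Its level was 17.5, 21.3, 21.1, 21.0 and 18.8 FPKM in double mutants, 11.2, 10.2, 11.5, 12.2 and 13.6 FPKM in *gas-1* mutants, and 7.01, 6.39, 6.22, 6.35 and 6.71 FPKM in wt. Every double mutant library lay above every *gas-1* library, and every *gas-1* library above every wt library. Compared to *gas-1* mutants, the double mutant was higher by 0.76 on the log2 scale, with an SE of 0.076 (adjusted p = 5.7e-06 from limma). Compared to wt, the log2 fold change was 1.59 in double mutants (adjusted p = 5.3e-10 from limma) and 0.83 in *gas-1* mutants (adjusted p = 4.4e-07 from limma), which on the FPKM scale are means 3.05 and 1.797 times that of wt.

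The other synthase gene, *tps-2* (WBGene00006603, plus strand of chromosome II from 14600902 to 14610554), separated the double mutant from the rest. It measured 34.3, 33.9, 38.5, 36.6 and 34.7 FPKM in double mutant libraries. The *gas-1* libraries had 28.4, 21.1, 28.6, 22.8 and 22.5 FPKM, and the wt libraries 26.7, 23.9, 22.9, 18.4 and 23.7 FPKM, so *gas-1* and wt overlapped over most of their range. The rise was 0.54 on the log2 scale in double mutants compared to *gas-1* mutants (SE 0.10, adjusted p = 0.0010 from limma) and 0.63 compared to wt (adjusted p = 5.3e-05 from limma). In *gas-1* mutants relative to wt the value was 0.09 with an SE as large as 0.10 (adjusted p = 0.43 from limma), and its sign turned under median-of-ratios rescaling and quantile normalization of the libraries, to -0.03 in each. An annotated gene on the same strand, *arl-3*, shares 24 exon bases with *tps-2*, and it was listed at 0 in all libraries.

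The phosphatase gene *gob-1* (WBGene00001649) was measured with the smallest error of the set. It had 29.7, 30.1, 32.6, 30.2 and 29.3 FPKM in double mutants, 24.9, 22.95, 24.0, 24.0 and 26.1 FPKM in *gas-1*, and 18.4, 19.1, 18.5, 17.6 and 18.1 FPKM in wt libraries. No libraries of different strains overlapped. Its log2 fold change was 0.32 in double mutants compared to *gas-1* mutants (SE 0.041, adjusted p = 5.8e-05 from limma), 0.72 in double mutants relative to wt (adjusted p = 2.5e-09 from limma) and 0.41 in *gas-1* mutants relative to wt (adjusted p = 1.1e-06 from limma).

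The *gob-1* gene lies on the plus strand of chromosome X from 15493602 to 15497504, at 89.3 kb from the mutated *gas-1* gene, which both mutants carry. Of the 160 tested genes within 1 Mb of *gas-1*, 109 were higher and 12 lower in *gas-1* mutants relative to wt, 115 were higher and 14 lower in double mutants relative to wt, and 29 were higher and 9 lower in double mutants compared to *gas-1* mutants. Ordered from the highest fold change down among these neighbours, *gob-1* ranked 83, 51 and 30 in the same 3 comparisons. The whole chromosome leaned the same way. Of 1626 tested genes on chromosome X, 69.6% were higher and 5.90% lower in *gas-1* mutants relative to wt. In double mutants relative to wt 72.9% of them were higher and 5.97% lower. Among all tested genes 44.0% and 44.5% were higher, and 24.6% and 31.2% lower, in these comparisons. Between the mutants 19.2% of the tested genes on X were higher and 5.66% lower, beside 13.5% and 19.5% of all tested genes. The median log2 fold change on X was 0.46 in *gas-1* mutants and 0.57 in double mutants relative to wt, and 0.08 between the mutants. The *gob-1* change of 0.41 in *gas-1* mutants was thus below the median of its chromosome, and its change of 0.72 in the double mutant above it. The other members on X, *tps-1* and *tre-4*, are 1.88 Mb and 2.11 Mb from *gas-1* and lay above the chromosome's median in both. The part of this chromosome-wide shift in the changes of the members on X was not tested.

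**Figure D2:**
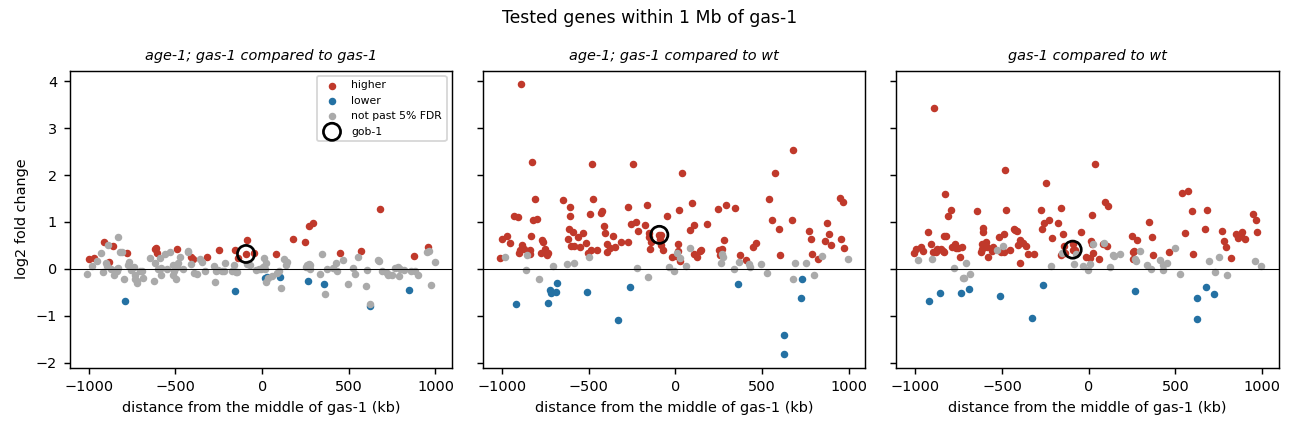
Log2 fold change (vertical axis) of the 160 tested genes within 1 Mb of *gas-1* against their distance from it in kb (horizontal axis), coloured by the call at 5% FDR, for double mutants compared to *gas-1*, double mutants relative to wt and *gas-1* compared to wt, with *gob-1* ringed. In the comparisons to wt most points lie above 0 (115 and 109 called higher), and *gob-1* sits among them rather than at their edge.

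The trehalase genes differed widely in level. The most abundant, *tre-1* (WBGene00006607, plus strand of chromosome I from 6554729 to 6558665), had 195.1, 176.0, 208.9, 186.6 and 165.6 FPKM in double mutants and 189.4, 179.2, 191.9, 180.3 and 182.8 FPKM in *gas-1* mutants, against 223.3, 209.8, 225.8, 201.8 and 224.8 FPKM in wt. All *gas-1* libraries and 4 of the 5 double mutant libraries were below the lowest wt library. It fell in *gas-1* mutants by 0.23 on the log2 scale (SE 0.055, adjusted p = 0.0019 from limma) and by 0.22 in double mutants (adjusted p = 0.0021 from limma) compared to wt, and by 0.36 and 0.34 after median-of-ratios rescaling. Without the 4 libraries low in sperm transcripts the double mutant value was -0.13 (adjusted p = 0.042 from limma). Between the mutants the log2 fold change was 0.0094 with an SE of 0.055 (adjusted p = 0.92 from limma), and its sign turned when *gas-1* replicate 2 (-0.0015) or double mutant replicate 1 (-0.0082) or 3 (-0.03) was left out.

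Next in level was *tre-2* (WBGene00006608, minus strand of chromosome IV from 6876731 to 6883442), the only trehalase gene called lower in the double mutant than in *gas-1* mutants. It measured 46.7, 45.5, 45.6, 44.6 and 45.4 FPKM in double mutants, 59.1, 52.5, 57.9, 51.9 and 47.7 FPKM in *gas-1*, and 47.2, 52.6, 51.4, 46.6 and 47.1 FPKM in wt libraries. The double mutant libraries lay close together and below every *gas-1* library, while the *gas-1* and wt libraries overlapped. Compared to *gas-1* mutants the transcript fell by 0.24 on the log2 scale (SE 0.055, adjusted p = 0.0046 from limma). The value of 0.13 in *gas-1* mutants relative to wt was close to the threshold (adjusted p = 0.044 from limma) and close to the shift of all genes, whose median was 0.14, and the call was lost in 18 of 29 alternative settings, among them the fit without the 4 libraries low in sperm transcripts (0.16, adjusted p = 0.052 from limma). Compared to wt the double mutant had -0.10 (adjusted p = 0.11 from limma).

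Like *tps-1*, the trehalase gene *tre-3* (WBGene00006609, minus strand of chromosome V from 11709769 to 11715903) placed the 3 strains in separate ranges. Its levels were 19.4, 19.8, 22.9, 21.7 and 18.8 FPKM in double mutants, 13.9, 13.4, 14.3, 12.7 and 16.3 FPKM in *gas-1* mutants, and 9.42, 8.43, 8.89, 7.24 and 8.53 FPKM in wt. The lowest library of the double mutant exceeded the highest of *gas-1*, and the lowest of *gas-1* the highest of wt. The log2 fold change was 0.54 between the mutants (SE 0.081, adjusted p = 0.00020 from limma), and compared to wt it was 1.26 in double mutants (adjusted p = 7.5e-09 from limma) and 0.73 in *gas-1* mutants (adjusted p = 2.8e-06 from limma).

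The 2 trehalase genes of lowest level were measured less precisely. The gene *tre-4* (WBGene00006610, plus strand of chromosome X from 13472155 to 13475926) had 2.62, 2.81, 3.04, 2.96 and 2.46 FPKM in double mutants, 1.77, 2.06, 1.88, 1.99 and 2.67 FPKM in *gas-1*, and 1.72, 1.44, 1.03, 1.34 and 1.36 FPKM in wt libraries. Either mutant lay wholly above wt, but *gas-1* replicate 5, at 2.67 FPKM, was within the range of the double mutant. The rise compared to wt was 0.97 on the log2 scale in double mutants (SE 0.13, adjusted p = 9.3e-06 from limma) and 0.56 in *gas-1* mutants (adjusted p = 0.0016 from limma), and after quantile normalization these values were 0.34 (adjusted p = 0.0084 from limma) and 0.03 (adjusted p = 0.79 from limma). The difference of 0.41 between the mutants passed at an adjusted p of 0.024 from limma, and no longer passed when *gas-1* replicate 1, 3 or 4 or double mutant replicate 3 or 4 was left out (adjusted p between 0.051 and 0.063 from limma). On the opposite strand *efn-3*, which encodes an ephrin, shares 51 exon bases with *tre-4*, or 2.58% of its exons. It averaged 2.64 FPKM in double mutants, 4.39 FPKM in *gas-1* and 6.62 FPKM in wt, the opposite order of strains.

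For *tre-5* (WBGene00006611, minus strand of chromosome II from 52997 to 55304) only 2 libraries reached 1 FPKM. It had 0.694, 0.546, 0.953, 0.730 and 0.757 FPKM in double mutants, 1.30, 0.331, 1.35, 0.517 and 0.349 FPKM in *gas-1*, and 0.269, 0.192, 0.472, 0.0864 and 0.191 FPKM in wt libraries. All double mutant libraries were above all wt libraries. The *gas-1* libraries ran from within the wt range, at 0.331 and 0.349 FPKM, to above every double mutant library, at 1.30 and 1.35 FPKM. As it was outside the filter, *tre-5* was compared by exact two-sided permutation of the library labels on log2(FPKM + 0.1), adjusted over the 3 comparisons. The mean was higher by 1.37 in double mutants relative to wt (exact p = 0.0079, the smallest that 252 regroupings of 5 against 5 allow, adjusted p = 0.024) and by 1.24 in *gas-1* mutants relative to wt (exact p = 0.032, adjusted p = 0.048). With a pseudocount of 1 FPKM the differences were 0.49 and 0.47. The call in *gas-1* mutants was lost when any of wt replicates 1, 2, 4 and 5 or *gas-1* replicates 1, 3 and 4 was left out (adjusted exact p between 0.071 and 0.12). Between the mutants the difference was 0.13 (exact p = 0.71), with a negative sign when *gas-1* replicate 2 (-0.07) or 5 (-0.05) was left out. The gene lies within the span of *sptl-1* on the opposite strand, which encodes a serine palmitoyltransferase subunit and averaged 204.0 FPKM in double mutants, 185 FPKM in *gas-1* and 118 FPKM in wt. Their annotated exons share 0 bases. Like *tre-5*, *sptl-1* averaged higher in either mutant than in wt. Whether strand was used in counting is not given, and a part of *sptl-1* reads in the *tre-5* values was not tested.

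**Figure D3:**
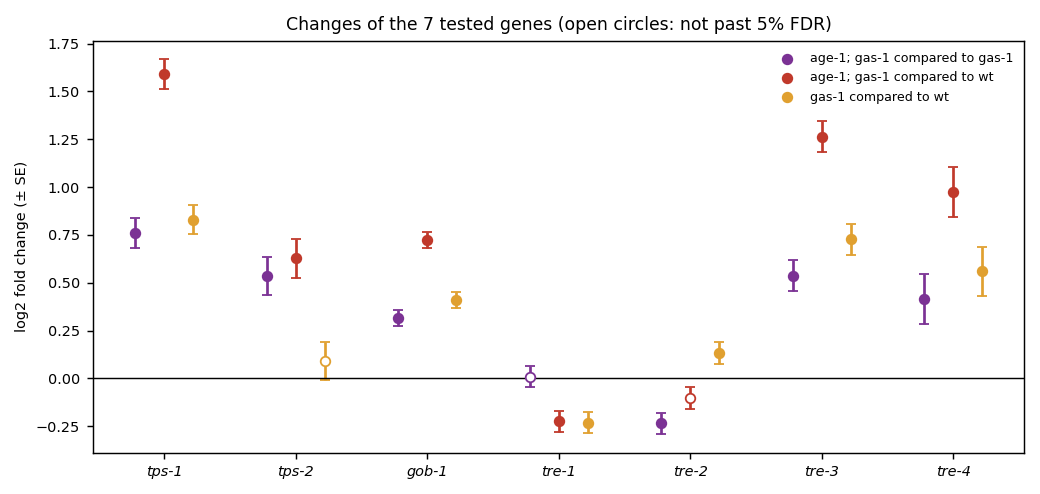
Log2 fold change with its SE from limma (vertical axis) of the 7 tested genes in double mutants compared to *gas-1*, double mutants relative to wt and *gas-1* compared to wt, with open circles for values that did not pass 5% FDR. In double mutants relative to wt the values run from -0.22 for *tre-1* to 1.59 for *tps-1*.

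In all, 5 of the 7 tested genes were higher, 1 was lower and 1 did not pass the test in each of the 3 comparisons, and these comparisons share libraries with each other. In double mutants compared to *gas-1* mutants, where 13.5% of all tested genes were called higher and 19.5% lower, the 5 were *tps-1*, *tps-2*, *gob-1*, *tre-3* and *tre-4*, and *tre-2* was lower. In double mutants relative to wt, where 44.5% were called higher and 31.2% lower, *tps-1*, *tps-2*, *gob-1*, *tre-3* and *tre-4* were higher and *tre-1* was lower. In *gas-1* mutants relative to wt, where the calls reached 44.0% and 24.6%, *tps-1*, *gob-1*, *tre-2*, *tre-3* and *tre-4* were higher and *tre-1* was lower. After median-of-ratios rescaling the calls over all genes in this last comparison were 4245 higher and 4038 lower, in place of 5120 and 2866, and after quantile normalization they were 3057 and 4423. In double mutants relative to wt, 5183 higher and 3633 lower became 3359 and 4999 after quantile normalization. Calls in either direction thus made up 33.0%, 75.7% and 68.6% of all tested genes in these comparisons, and 6 of the 7 members in each. Libraries of the compared strains did not overlap for 5 of the 7 genes in each comparison, against 26.3% of all tested genes in double mutants compared to *gas-1* mutants, 62.2% in double mutants relative to wt and 50.5% in *gas-1* mutants relative to wt. In the comparisons to wt a call in either direction was thus the usual outcome for a tested gene. The median log2 fold change of the 7 genes was 0.41 in double mutants compared to *gas-1* mutants, 0.72 in double mutants relative to wt and 0.41 in *gas-1* mutants relative to wt, beside -0.02, 0.14 and 0.14 over all tested genes. After quantile normalization, *tps-1* was at 0.53, *tre-3* at 0.47 and *gob-1* at 0.27 in *gas-1* mutants relative to wt, all still past the test. Set against the shift of all genes, *tps-1* was at 1.45, *tre-3* at 1.12 and *gob-1* at 0.59 in double mutants compared to wt. On chromosome X, which holds *tps-1* and *gob-1*, the median in this comparison was 0.57 rather than 0.14.

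The order of the levels was the same in each strain, with *tre-1* highest, followed by *tre-2*, *tps-2*, *gob-1*, *tre-3*, *tps-1*, *tre-4* and *tre-5*. Some neighbours in this order overlapped between libraries. These were *tre-3* and *tps-1* in double mutants, *tps-2* and *gob-1* as well as *tre-3* and *tps-1* in *gas-1* mutants, and *tps-2* and *gob-1* in wt.

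Sums of these levels describe how the transcripts were divided over the pathway, and they carry no test here. The synthase sum, *tps-1* plus *tps-2*, was 55.5 ± 3.14 FPKM in double mutants, 36.4 ± 3.63 FPKM in *gas-1* and 29.7 ± 3.22 FPKM in wt libraries (SD, n = 5 each). The trehalase sum, *tre-1* to *tre-5*, ran from 233 to 281 FPKM in double mutants, from 247 to 267 FPKM in *gas-1* and from 257 to 288 FPKM in wt, with means of 256, 255 and 276 FPKM. Trehalase transcripts therefore outweighed those of the synthases in all strains, but by less in the mutants. Per 100 FPKM of trehalases the synthases had 19.6 to 22.9 FPKM in double mutants, 12.6 to 15.01 FPKM in *gas-1* and 9.65 to 11.96 FPKM in wt libraries, ranges that did not overlap.

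The make-up of each sum changed as well. The share of *tps-1* in the synthase sum was 35.9% ± 1.83 in double mutants, 32.4% ± 4.00 in *gas-1* and 22.2% ± 1.97 in wt (SD, n = 5 each), and that of either mutant lay above wt while the mutants overlapped. Among the trehalases, *tre-1* made up 72.7% ± 1.30 in double mutants, 72.3% ± 0.763 in *gas-1* and 78.6% ± 1.03 in wt. The share of *tre-3* was 8.02% ± 0.417, 5.54% ± 0.567 and 3.07% ± 0.188 in the same strains, with no overlap between libraries of different strains. That of *tre-2* was 21.0% ± 1.20 in *gas-1* mutants, against 17.9% ± 1.25 in double mutants and 17.7% ± 1.08 in wt. Per 100 FPKM of synthases, the phosphatase *gob-1* had 54.8 ± 1.79 FPKM in double mutants, 67.4 ± 5.92 FPKM in *gas-1* and 62.3 ± 6.06 FPKM in wt, so that the double mutant had more synthase transcript relative to phosphatase than *gas-1* mutants, without overlap, while its range met that of wt.

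**Figure D4:**
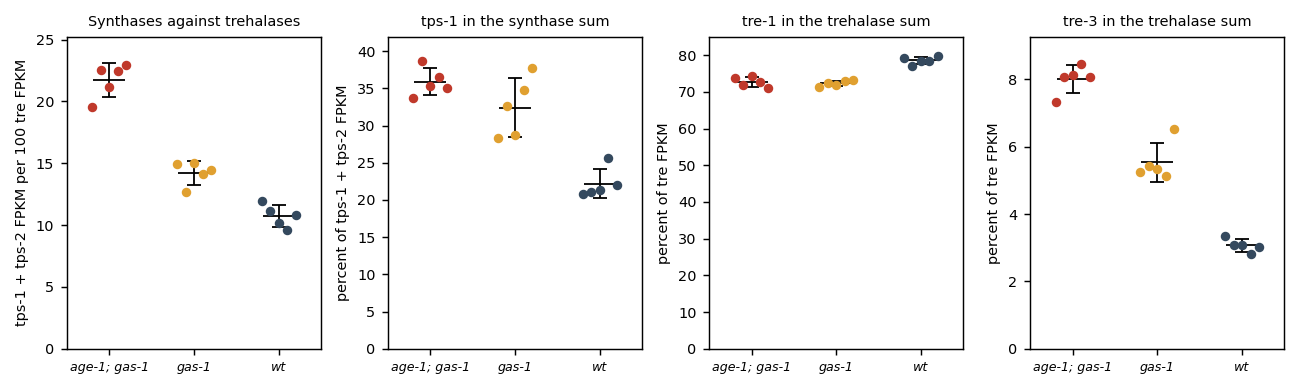
For each library (points; bars, mean and SD of 5), from left to right, the synthase FPKM per 100 trehalase FPKM, the percent of *tps-1* in the synthase sum, and the percents of *tre-1* and *tre-3* in the trehalase sum, each axis from 0, for double mutants, *gas-1* and wt. The synthase to trehalase value and the *tre-3* share form 3 separate ranges, while the *tre-1* share sets wt (78.6%) apart from the mutants (72.7% and 72.3%).

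The genes that feed the pathway or share its substrate were examined in a list of 19 genes of glucose phosphorylation, glycogen and gluconeogenesis, of which 18 were matched and tested. In double mutants compared to *gas-1* mutants 8 of them rose, 1 fell and the other 9 were not past the threshold. In double mutants relative to wt 11 rose, 4 did not pass and 3 fell, namely *gsy-1*, *pygl-1* and *agl-1*. In *gas-1* mutants relative to wt 10 rose, 4 did not pass and 4 fell, namely *gsy-1*, *agl-1*, *aagr-2* and *aagr-3*. The list's median log2 fold change was 0.03, 0.40 and 0.13 in these comparisons, beside -0.02, 0.14 and 0.14 over all tested genes. Among all tested genes 13.5%, 44.5% and 44.0% were called higher and 19.5%, 31.2% and 24.6% lower in the same order. Higher counts moved little between alternatives, but the single lower call between the mutants, the glycogen phosphorylase gene *pygl-1*, became 0 to 5 lower genes, among them 3 without wt replicate 3, 4 without *gas-1* replicate 5, and 2 without *gas-1* replicate 4 or double mutant replicate 1, 3 or 4.

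The genes *pck-1*, *pck-2* and *icl-1*, which act in making sugar from smaller molecules, rose in all 3 comparisons. The phosphoenolpyruvate carboxykinase gene *pck-1* averaged 251 ± 23.2 FPKM in double mutants and 198 ± 13.8 FPKM in *gas-1*, against 49.2 ± 3.11 FPKM in wt (SD, n = 5 each), log2 fold changes of 2.35 and 2.00 compared to wt (adjusted p = 2.0e-12 and 1.2e-11 from limma). Its paralog *pck-2* averaged 457 ± 36.1 FPKM in double mutants, 304 ± 19.1 FPKM in *gas-1* and 176 ± 14.4 FPKM in wt, stepping up through the strains as *tps-1* and *tre-3* did, with a log2 fold change of 0.59 between the mutants (adjusted p = 2.0e-05 from limma). For *icl-1*, the glyoxylate cycle enzyme that lets nematodes turn fat into sugar, the means were 599.7 ± 71.7 FPKM in double mutants, 284 ± 77.7 FPKM in *gas-1* and 103 ± 33.7 FPKM in wt, and the difference between the mutants was 1.11 (adjusted p = 0.0013 from limma). The glycogenin gene *gyg-1* of chromosome X, which primes glycogen synthesis, rose by 0.96 in *gas-1* mutants relative to wt (adjusted p = 0.00010 from limma). The glycogen synthase gene *gsy-1*, which uses the same UDP-glucose as the trehalose synthases, averaged 61.3 ± 1.47 FPKM in double mutants and 65.3 ± 0.879 FPKM in *gas-1*, against 77.1 ± 4.77 FPKM in wt. It fell by 0.33 in double mutants and by 0.24 in *gas-1* mutants relative to wt (adjusted p = 2.2e-06 and 7.5e-05 from limma), the opposite direction to *tps-1*. This gene and the others outside the largest changes of a list were named after their values were seen. The acid alpha-glucosidase genes *aagr-1* and *aagr-2* rose by 1.16 and 0.61 in double mutants compared to *gas-1* mutants (adjusted p = 0.00020 and 0.00021 from limma).

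**Figure D5:**
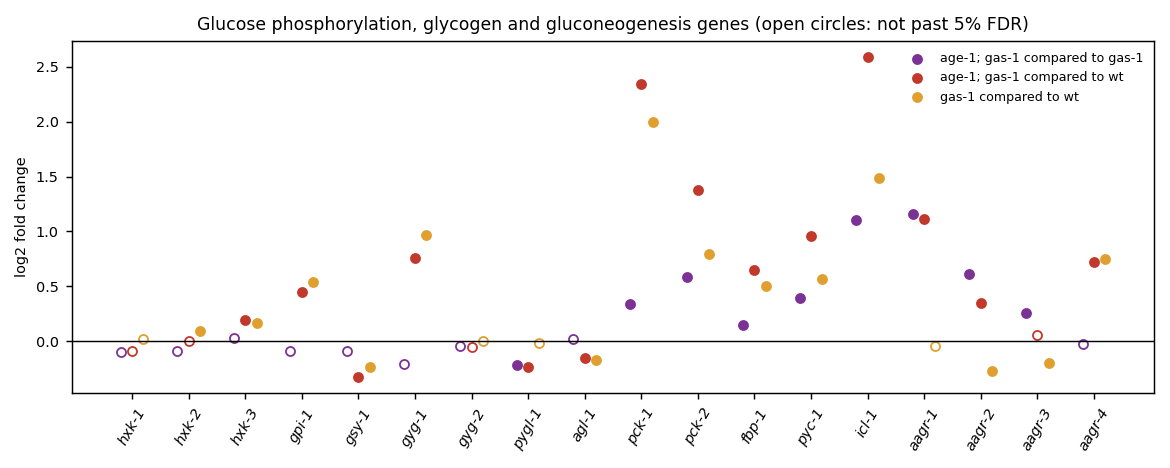
Log2 fold change (vertical axis) of the 18 tested genes of glucose phosphorylation, glycogen and gluconeogenesis in the 3 comparisons, with open circles for values that did not pass 5% FDR. The highest points are those of *icl-1* (2.59) and *pck-1* (2.35) in double mutants relative to wt, while *gsy-1* lies below 0.

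Trehalose also acts as a protectant, so 10 genes of osmolytes and desiccation were listed, of which 6 passed the filter. In double mutants compared to *gas-1* mutants 1 rose and 0 fell, in double mutants relative to wt *lea-1* and *osm-11* rose and *aqp-8*, *wnk-1* and *gck-3* fell, and in *gas-1* mutants relative to wt *lea-1* and *osm-11* rose and *wnk-1* fell. The list's median was -0.04, -0.07 and -0.01, beside -0.02, 0.14 and 0.14 over all tested genes. Calls over all tested genes were 13.5%, 44.5% and 44.0% higher and 19.5%, 31.2% and 24.6% lower in these comparisons. The gene that rose between the mutants was *lea-1*, which encodes a protein of the late embryogenesis abundant kind linked to desiccation tolerance, and its mean was 347 ± 18.3 FPKM in double mutants, 140.2 ± 22.1 FPKM in *gas-1* and 93.5 ± 7.56 FPKM in wt (1.32 on the log2 scale between the mutants, adjusted p = 1.3e-07 from limma). Between the mutants *osm-11* was also higher without wt replicate 3, and *gck-3* was lower without *gas-1* replicate 5. Glycerol, the other main osmolyte of the nematode, is made by glycerol-3-phosphate dehydrogenases, and *gpdh-2* averaged 319.8 ± 18.9 FPKM in double mutants, 326 ± 14.3 FPKM in *gas-1* and 329.8 ± 31.0 FPKM in wt, with log2 fold changes between -0.04 and -0.01 that did not pass the test in any comparison, while *gpdh-1* was below 1 FPKM. The Notch ligand gene *osm-11*, which also lies on chromosome X, rose by 0.63 and 0.44 in double mutants and *gas-1* mutants relative to wt (adjusted p = 2.2e-05 and 0.00073 from limma), and *wnk-1*, a kinase of the response to osmotic stress, fell by 0.33 and 0.27 (adjusted p = 0.00054 and 0.0030 from limma). The aquaporin gene *aqp-8* fell by 0.66 in double mutants relative to wt (adjusted p = 0.0031 from limma), a call lost without the 4 libraries low in sperm transcripts (-0.31, adjusted p = 0.058 from limma).

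Of 9 genes of IIS and DAF-16, all of which were tested, 3 rose and 0 fell in double mutants compared to *gas-1* mutants. These were *akt-2* and *akt-1*, kinases downstream of AGE-1, and the receptor gene *daf-2*, with log2 fold changes of 1.08, 0.20 and 0.57 (adjusted p = 2.2e-06, 0.021 and 4.4e-05 from limma). The call on *akt-1* was lost without double mutant replicate 3 (0.17, adjusted p = 0.056 from limma). In double mutants relative to wt *age-1*, *aap-1* and the phosphatase gene *daf-18* fell, and 5 genes rose, namely *daf-2*, *daf-16*, *akt-2* at 1.52, *sgk-1*, another kinase of this branch, at 1.05 and *pdk-1*, which encodes the kinase that activates them, at 0.65. In *gas-1* mutants relative to wt 3 rose, *sgk-1* at 0.86, *akt-2* at 0.45 and *daf-16* at 0.19, and 4 fell, *age-1* at -0.25, its adaptor *aap-1* at -0.24, *daf-18* at -0.21 and *akt-1* at -0.16, and the lower count was 2 without wt replicate 3 or 5 or *gas-1* replicate 5. The *akt-2* value in *gas-1* mutants became 0.02 after quantile normalization (adjusted p = 0.87 from limma). The list's median log2 fold change was 0.19 in double mutants against *gas-1*, 0.14 in double mutants against wt and -0.05 in *gas-1* against wt. Over all tested genes it was -0.02, 0.14 and 0.14. Of these, 13.5%, 44.5% and 44.0% were called higher and 19.5%, 31.2% and 24.6% lower. Of the genes that rose relative to wt, *sgk-1*, *akt-2* and *pdk-1* are on chromosome X, where most tested genes were higher than in wt, and *sgk-1* is 669.9 kb from *gas-1*. The transcript of *daf-16*, whose product raises the synthase genes when IIS is low, averaged 102.0 ± 4.84 FPKM in double mutants, 106 ± 4.43 FPKM in *gas-1* and 92.7 ± 2.89 FPKM in wt, with a log2 fold change of -0.05 between the mutants (adjusted p = 0.32 from limma).

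Genes whose levels ran most closely with each member were found by Pearson's r over the 15 libraries among 7790 genes with a mean of at least 5 FPKM. These correlations are a description, since all genes share the same strains and libraries. Highest for *tps-1* was *pgp-5*, a P-glycoprotein transporter gene (r = 0.991), followed by *ugt-31*, of the UDP-glucuronosyltransferase family (r = 0.990), and *hil-1*, which encodes a linker histone (r = 0.990). The gluconeogenic *pck-2* was first for *tre-3* (r = 0.992), followed by *alh-3* (r = 0.991) and T02C5.1 (r = 0.991), and it was also near *gob-1* (r = 0.990), after F47B8.2 (r = 0.991) and *clp-4* (r = 0.991). Nearest to *tps-2* were F32B5.6 (r = 0.966), T28F4.5 (r = 0.961) and the nuclear hormone receptor gene *nhr-117* (r = 0.955), and nearest to *tre-4* were F56D5.6 (r = 0.987), R09H10.3 (r = 0.981) and *gta-1* (r = 0.980). The genes that differed least between strains had looser matches, *farl-11* (r = 0.925), *anmt-2* (r = 0.907) and *gly-9* (r = 0.907) for *tre-1*, and *smg-9* (r = 0.856), F25B4.7 (r = 0.840) and F48C1.6 (r = 0.838) for *tre-2*.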

How the data were processed

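Whole-animal mRNA of 3 strains, with 5 libraries each, was sequenced in single 50 bp reads after stranded library preparation from 100 ng RNA. Tools credited to the submitters' processing notes are STAR 2.4.0h, Cufflinks 2.1.1, Cuffdiff, FastQC 0.10.1 and CASAVA 1.8.2. The authors deposited FPKM for 20483 genes per library. The build, the annotation and whether strand was used are not given in the sources. The sum over genes was 658126 to 702623 FPKM, and read totals are not known; relative to wt replicate 1, the size of a single read differed by -0.38 to 0.60 on the log2 scale, a rough measure of depth. Strains came from the sample labels, and genes were located by identifier in WBcel235. The 11648 genes that reached 1 FPKM in 5 or more of the 15 libraries entered limma 3.58.1 (R 4.3.3) on the scale log2(FPKM + 0.1), with the mean‐variance trend and Benjamini‐Hochberg adjustment within each comparison. The fit was tested on simulated data. The *tre-5* gene was compared by exact permutation. Members and lists were chosen with earlier results of these data known. Named genes are the 8 members, up to 4 genes per list and comparison with the largest change past the test, and 3 genes per member by Pearson's r; others are stated. Alternatives covered pseudocounts of 0.5 and 1 FPKM, other filters, 3 rescalings, limma settings, the 10 libraries compared, a replicate block, 1% FDR and leaving out each library or 4 libraries low in sperm transcripts.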

Additional observations from a re-analysis of the deposited data

Results flagged for a closer look

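The level of *gob-1* in double mutant replicate 3, 32.6 FPKM, stood apart from the other double mutant libraries, which had 29.3 to 30.2 FPKM, by a gap above Dixon's critical value for 5 samples. It was the only such value among 24 groups, each of them 1 gene in 1 strain, and chance alone gives about 1 in 20. All calls on *gob-1* held without this library.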

How the results depend on the processing

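Over 669 values of the members' changes under alternatives, 626 kept their direction and side of the threshold, 33 lost the call, 3 gained it and 7 turned their sign. No call on *tps-1*, *gob-1* or *tre-3* was lost. The count of members lower in double mutants relative to wt was 2 rather than 1 after median-of-ratios rescaling and with only the 10 libraries compared, since *tre-2* then passed (-0.22 and -0.10, adjusted p = 0.0037 and 0.041 from limma). In *gas-1* mutants relative to wt, *tre-2* ranged from 0.0089 after median-of-ratios rescaling to 0.21 and was called in 11 of 29 alternatives, *tre-4* was 0.03 after quantile normalization (adjusted p = 0.79 from limma), and *tps-2* was -0.0326 after the first, -0.0264 after the second of these rescalings and 0.22 with array weights (adjusted p = 0.047 from limma). Between the mutants, leaving out a library moved *tre-1* from -0.0327 to 0.051 and *tre-5* from -0.0676 to 0.3696. The trehalase sum in wt became 289.8 FPKM after median-of-ratios rescaling. The cause of these shifts was not tested. The replicate numbers gave no clear pairing of the libraries. Correlations of same-numbered libraries ran from -0.76 to 0.79 over the 3 comparisons, and from -0.12 to 0.79 between the mutants. Whether same-numbered libraries were collected together is not known. With the replicate block the only member call lost was that of *tre-4* between the mutants (adjusted p = 0.053 from limma).

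Counts over all genes moved more. In *gas-1* compared to wt, 5120 genes were higher and 2866 lower, but 3098 were higher with a filter of 5 FPKM, and 3057 higher and 4423 lower after quantile normalization. In double mutants relative to wt, 5183 were higher, against 7993 without a filter, 3079 at 5 FPKM and 3359 after quantile normalization. Between the mutants, 1572 were higher and 2276 lower, against 2381 and 3595 with array weights and 950 and 1420 at 1% FDR. In the glucose list, 3 genes lower in double mutants relative to wt became 6 with median-of-ratios and 1 with quantile scaling, and 4 lower in *gas-1* compared to wt became 2 at 1% FDR. In the osmolyte list, 1 gene lower in *gas-1* compared to wt became 4 with median-of-ratios and 3 with quantile scaling, 2 higher in either mutant compared to wt became 4 without a filter, and 0 lower between the mutants became 3 with array weights. In the IIS list, 4 genes lower in *gas-1* compared to wt became 1 at 1% FDR. The read depth behind each value is unknown.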
